A study of Mus musculus with 12 samples.

Results

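Histone cluster genes were followed in mouse bone marrow-derived macrophages at rest and after inflammatory activation, with and without inhibition of DGAT1. A gene was taken as a member when its Ensembl identifier mapped to a protein-coding mouse gene whose symbol starts with Hist1h, Hist2h, Hist3h or Hist4h and when it had 30 or more reads summed over the 12 libraries. There were 56 such genes among 67 protein-coding histone cluster genes in the annotation, of which 65 had a row in the count table of 47937 genes. The members were 5 genes for H1, 14 for H2A, 13 for H2B, 11 for H3 and 13 for H4. Of the other genes in the table, 6 had between 1 and 29 reads in all and 3 had no read, while Hist1h2bm and Hist1h2bh were not analysed here. Just inside the threshold lay Hist3h2ba with 36 reads and Hist2h2aa2 with 38 reads, and just outside it lay Hist1h1t with 7 reads.

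The cells were grown from C57BL/6 bone marrow in CSF-1, the growth factor that drives macrophage formation, and each of 4 groups had 3 RNA sequencing libraries. Resting macrophages are called M0. The second group was stimulated with IFNγ at 50 ng/ml and LPS at 20 ng/ml, and its labels give 18 h. T863 at 50 µM, an inhibitor of DGAT1 (DGAT1i), was given to the resting cells of the third group and to the IFNγ + LPS stimulated cells of the fourth, again with 18 h in the labels. DGAT1 catalyses the last step of triacylglycerol synthesis. All groups shared the strain, the medium and CSF-1, and the M0 labels carry no time.

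Replication-dependent histone genes supply the proteins that package newly made DNA. A core particle of H2A, H2B, H3 and H4 carries the DNA, and H1 sits on the linker between particles. In dividing cells these genes are switched on together in S phase, and their messenger RNAs are unusual in ending in a conserved stem-loop instead of a poly(A) tail. Some of the genes can also give polyadenylated transcripts, in particular in cells that have left the cell cycle, whereas the replacement histones (such as H3.3 and H2A.Z) come from separate genes with ordinary poly(A) tails. The library kits named in the labels and in the study's methods both work through poly(A) tails, so stem-loop transcripts without a tail were captured only in part, by an amount that was not measured.

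The stem-loop is shown first because it is the sequence that sets these transcripts apart. A search of the GENCODE M21 transcripts found it in 37 of the 56 members, in 6 versions, starting 21 to 58 bases after the stop codon. For 13 members fewer than 30 bases are annotated after the stop codon, so the search could not reach it there. The search accepted only a perfectly paired stem that starts with GG and a loop that starts with TT, so other forms would be missed. The version in 20 members, with genes of all types but H4, is represented by Hist1h1c, the H1 gene with the most reads, and by Hist3h2a, a gene that rose after activation. The version in 7 members was found in H4 genes, among them Hist1h4d, and a further version in 5 H2B and H3 genes, among them Hist1h3c, which was nearly lost after activation. Hist2h2ac carried a version of its own. Capitals mark the stem and loop, and the sequences are given 5′ to 3′ in the sense of the transcript, as DNA, with GRCm38 coordinates.
Hist1h1c, chr13:23739507-23739532, plus strand: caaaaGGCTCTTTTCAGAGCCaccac
Hist3h2a, chr11:58955167-58955192, plus strand: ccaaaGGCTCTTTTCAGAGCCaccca
Hist1h4d, chr13:23581945-23581970, plus strand: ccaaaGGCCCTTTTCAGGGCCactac
Hist1h3c, chr13:23745042-23745067, minus strand: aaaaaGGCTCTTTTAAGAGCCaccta
Hist2h2ac, chr3:96220413-96220438, minus strand: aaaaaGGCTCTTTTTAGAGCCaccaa
Hist1h1c and Hist3h2a have the same stem and loop and differ in the bases around them, while the other sites differ from these in the stem, the loop or both. No stem-loop that meets the search rule was found in Hist2h2be, the other member that rose. In Hist1h1c, Hist3h2a and Hist1h4d the annotated transcript runs on for 840, 1643 and 770 bases beyond the stem-loop and holds at least 1 poly(A) signal there. In Hist1h3c and Hist2h2ac it ends after 74 and 57 bases, with no poly(A) signal.

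Members of a histone type are near-identical copies, which bears on every count given per gene. Of the windows of 50 bases in a member's transcripts, a median of 48.2% also occurred in another annotated gene. Both strands were searched, and genes with overlapping exons were left out. Such matches are called copies here, whether or not they are histone genes. H1 genes were the most distinct, with a median of 2.25%, followed by H4 with 39.5%, H2B with 44.1%, H3 with 60.4% and H2A with 62.6%. The 13 H4 members encode 1 protein between them, and the 11 H3 members encode 2. The 14 H2A members encode 8 proteins, as do the 13 H2B members, and the 5 H1 members encode 5. How the authors' counting treated a read that matches several copies is not given in the sources used here, so levels of single H2A, H2B, H3 and H4 genes are uncertain where the sequence is shared. For 14 members, at least 80% of the windows occurred in no copy, among them all 5 H1 genes and 4 H4 genes but no H3 gene. Most members, 45 of 56, lie between 21715763 and 23764406 on chromosome 13 (GRCm38), 8 lie on chromosome 3, 2 on chromosome 11 and 1 on chromosome 6.

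The libraries held between 4996014 and 6621671 reads, and reads of the members made up 0.411% to 0.542% of them in M0, 0.0383% to 0.0412% after IFNγ + LPS, 0.189% to 0.209% in M0 with DGAT1i and 0.0434% to 0.0465% after IFNγ + LPS with DGAT1i. Levels are CPM: reads scaled to a common library total and adjusted by TMM, which assumes that most genes do not change. The 8 macrophage markers, such as Csf1r and Adgre1, summed to between 7923 and 18070 CPM in every library, with none at 0 in any group. Markers of fibroblasts and red cells stayed at or below 2.11 CPM in sum, and those of T and B cells at or below 4.83 CPM. In bulk RNA, fewer cells that carry a transcript and less of it in each cell cannot be told apart, and this holds for all levels below.

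Activation by IFNγ + LPS was compared with rest to ask how the histone genes of a macrophage respond to inflammatory stimulation. Histone cluster reads fell to 11.2% ± 0.481 of their M0 sum (SD, n = 3 libraries). H3 fell furthest, to 3.35% ± 0.171, while H1 stood at 12.02% ± 0.515, H4 at 12.8% ± 0.887, H2A at 13.2% ± 0.181 and H2B at 13.9% ± 0.986 of their M0 means. For these and later percentages of M0, ± is the SD of the named group as a share of the M0 mean. The spread of M0 itself, an SD of 12.26% (H2B) to 17.45% (H2A) of its mean by type, is not in it. Summed H3 members measured 755, 795 and 582 CPM in the M0 libraries and 23.2, 25.2 and 23.0 CPM after activation. For every type the highest activated library lay far below the lowest M0 library, which was replicate 3 in each case. Scaling by library size alone put the 5 types at 2.42% to 10.0% of M0. Over the 2 H2A members with at least 80% of their sequence in no copy, Hist3h2a among them, the H2A sum stood at 80.2% of M0, and over 4 such H4 members the H4 sum stood at 22.2%. Markers of other cells moved with activation. Those of dendritic cells went from at most 0.696 CPM in sum to 8.06 to 11.2 CPM, with Xcr1 and Ccr7 higher. Neutrophil markers went from 31.6 to 38.7 CPM down to 15.2 to 25.5 CPM, with Ngp and Ltf lower, and B cell markers from 2.03 to 2.66 CPM down to 0.211 to 0.562 CPM, with Cd79b lower. Cd4 was the single T cell marker tested and was lower. The part of these cells in the histone values was not tested.

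**Figure D1:**
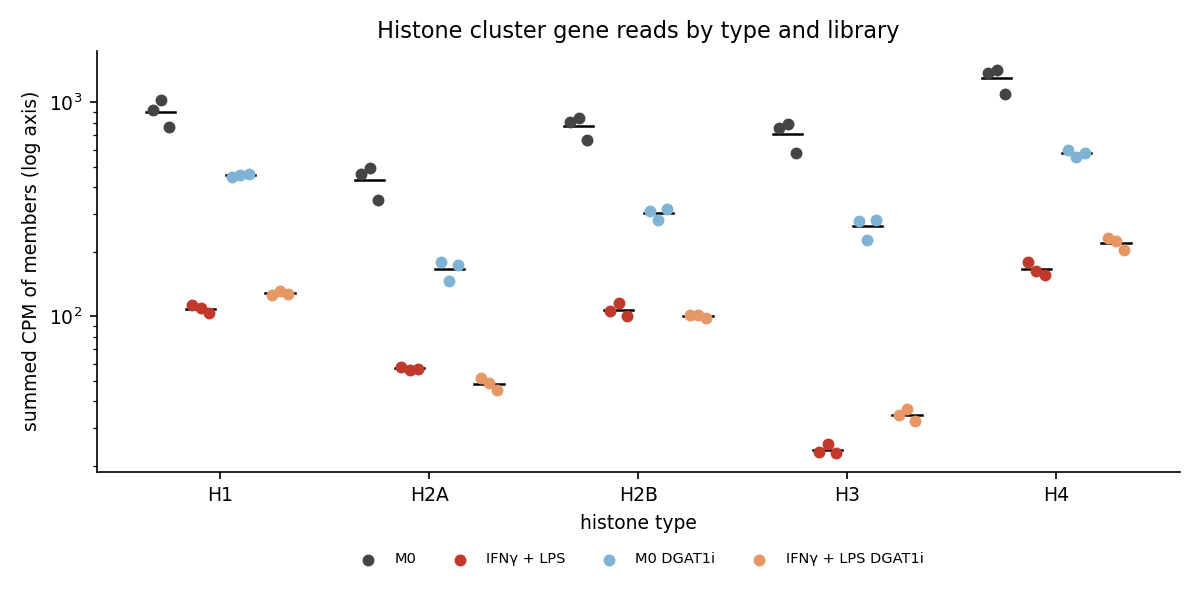
Summed CPM of the members of each histone type (log axis) in the 12 libraries, with 1 point per library and a bar at the mean of each group of 3. M0 lies highest for all 5 types, M0 with DGAT1i lies between, and both IFNγ + LPS groups lie lowest, with H3 at 23.8 CPM after IFNγ + LPS against 710 CPM in M0.

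Gene by gene, 51 of the 54 members tested were lower after IFNγ + LPS and 2 were higher, by quasi-likelihood tests in edgeR (Benjamini-Hochberg adjusted p under 0.05). Over all 11760 genes tested, 36.2% were lower and 37.1% were higher. The median log2 fold change of the members was -4.59, against 0.0064 over all genes, with quartiles of -5.67 and -2.93 over the members. By fitted log2 fold change, 49 members fell by more than 2-fold, 40 by more than 8-fold and 22 by more than 32-fold. These sizes were not counted over all genes. The 22 include Hist1h2ah, which had no read after activation and whose bound is 31.4-fold. Hist2h3c2 did not pass the test, with 1.74, 1.33 and 1.95 CPM in M0 and 0.842, 1.62 and 1.499 CPM after activation (adjusted p = 0.507). Hist2h2aa2 and Hist3h2ba had too few reads to be tested.

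The H1 genes, the type with the least sequence shared between copies, spread widely. Hist1h1e is the exception among them, since 496 bases of its exons overlap those of Hist1h2be on the same strand and 32% of its windows of 50 bases occurred in another gene, so its reads cannot be assigned to it alone. Hist1h1b, which encodes the linker histone H1.5, was almost lost: it measured 167, 186 and 137 CPM in M0 and 0.211, 0.180 and 0 CPM after IFNγ + LPS, which is 3525 reads against 2. That ratio is 1278, with an exact 95% interval of 354 to 10560 that covers counting error only. Hist1h1c, which encodes H1.2, kept the most: it measured 242, 267 and 200 CPM in M0 and 79.4, 77.05 and 77.4 CPM after activation. Its log2 fold change was -1.60 ± 0.0768 (SE, adjusted p = 4.37e-18). Hist1h1e (-3.02), Hist1h1d (-5.47) and Hist1h1a (-5.66) lay between them on the log2 scale. No activated library overlapped the M0 range for any of the 5. The same held for 52 of the 56 members that lay below M0, and the share over all genes was not counted.

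The makeup of the H1 reads differed between the groups. Hist1h1c held 26.1% ± 0.158 of H1 reads in M0 and 71.7% ± 2.34 after IFNγ + LPS (SD, n = 3). Hist1h1b went from 18.01% ± 0.196 to 0.117% ± 0.102, and Hist1h1a from 14.9% ± 0.830 to 2.44% ± 0.583. The share of Hist1h1e, at 21.5% ± 0.425 and 22.02% ± 1.88, differed by less than the spread between libraries. These are shares of reads, so a long transcript counts for more than a short one, although the same transcript models apply in both groups.

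H2A genes ran from members with no read after activation to a member that rose. Hist3h2a, a gene on chromosome 11 that stands apart from the large clusters, rose from 6.68, 6.39 and 6.54 CPM in M0 to 24.6, 21.6 and 20.98 CPM after IFNγ + LPS, the largest increase among the members (log2 fold change 1.77 ± 0.148, adjusted p = 4.4e-16). The activated libraries all lay above the M0 libraries. Its exons overlap those of Trim17 on the same strand, a gene that had 1 read in the 3 M0 libraries and 20 after activation, against 141 and 349 for Hist3h2a. At the other end, Hist1h2af had 26.0, 29.4 and 18.7 CPM in M0 and no read in any activated library, which makes it at least 129-fold lower when the floor is set at 3 reads over the group. Hist1h2an was at least 61.4-fold lower and Hist1h2ah at least 31.4-fold lower in the same way. Hist2h2ac, the H2A gene with the most reads, fell from 78.2, 80.6 and 57.4 CPM to 20.4, 21.8 and 25.7 CPM (log2 fold change -1.67 ± 0.126, adjusted p = 1.87e-11). Of the H2A reads, Hist3h2a held 1.54% ± 0.301 in M0 and 39.2% ± 2.96 after activation, and Hist2h2ac 16.6% ± 0.278 and 39.7% ± 4.97. Hist1h2ak, at 21.7% ± 0.855 the leading H2A gene of M0, held 1.80% ± 1.00 after activation.

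Among H2B genes the exception was Hist2h2be, which shares no window with a copy. It measured 5.23, 5.46 and 6.54 CPM in M0 and 9.69, 11.3 and 12.2 CPM after IFNγ + LPS, with no overlap (log2 fold change 0.95 ± 0.183, adjusted p = 7.68e-06). Hist1h2bc, the H2B gene with the most reads, fell the least of the 11 that fell, from 86.4, 90.02 and 71.99 CPM to 51.6, 63.2 and 49.6 CPM (-0.59 ± 0.0839, adjusted p = 2.53e-08). The groups did not overlap. Hist1h2bc encodes the same H2B protein as Hist1h2be and Hist1h2bg, and the 3 genes together kept 26.1% of their M0 level. The 4 genes Hist1h2bf, Hist1h2bj, Hist1h2bl and Hist1h2bn, which encode another H2B protein, kept 1.97%. Of the H2B reads, 10.7% ± 0.0933 came from Hist1h2bc in M0 and 50.9% ± 3.24 after activation.

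H3 genes encode the main S-phase forms of H3, and 10 of the 11 fell. Hist1h3g had 40.5, 41.1 and 28.5 CPM in M0 and no read in the activated libraries, at least 192-fold lower. Hist1h3c went from 1983 reads in M0 to 1 after activation, a ratio of 1438 with an exact 95% counting interval of 258 to 56820. Hist1h3e, the H3 gene with the most reads, fell from 136, 143 and 90.2 CPM to 8.001, 6.12 and 4.31 CPM (log2 fold change -4.34 ± 0.278, adjusted p = 4.23e-07). The 7 genes that encode the same H3 protein as Hist1h3b kept 3.97% of their M0 sum, and the 4 that encode the protein of Hist1h3a kept 1.64%. Hist2h3b, on chromosome 3, held 7.19% ± 0.646 of H3 reads in M0 and 35.7% ± 1.53 after activation.

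All 13 H4 genes fell, with log2 fold changes from -5.44 (Hist1h4f) to -0.59 (Hist1h4i) and a median of -3.19. Hist1h4d, the member of this type with the most reads, fell from 244, 255 and 211 CPM to 36.9, 30.2 and 28.3 CPM (-2.90 ± 0.0817, adjusted p = 1.03e-31). Hist1h4i measured 9.01, 11.3 and 6.82 CPM in M0 and 5.05, 6.30 and 6.56 CPM after activation, a small fall with no overlap between the groups. Hist2h4 kept 30.3 of 79.6 CPM, and Hist1h4c kept 40.6 of 160 CPM. All 13 encode the same protein. Their sum, which does not depend on how reads were divided between the copies but would miss reads dropped for matching several, was 1298 ± 173 CPM in M0 and 166 ± 11.5 CPM after activation (SD, n = 3). Over the 4 H4 members with at least 80% of windows in no copy, the sum after activation stood at 22.2% of M0.

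**Figure D2:**
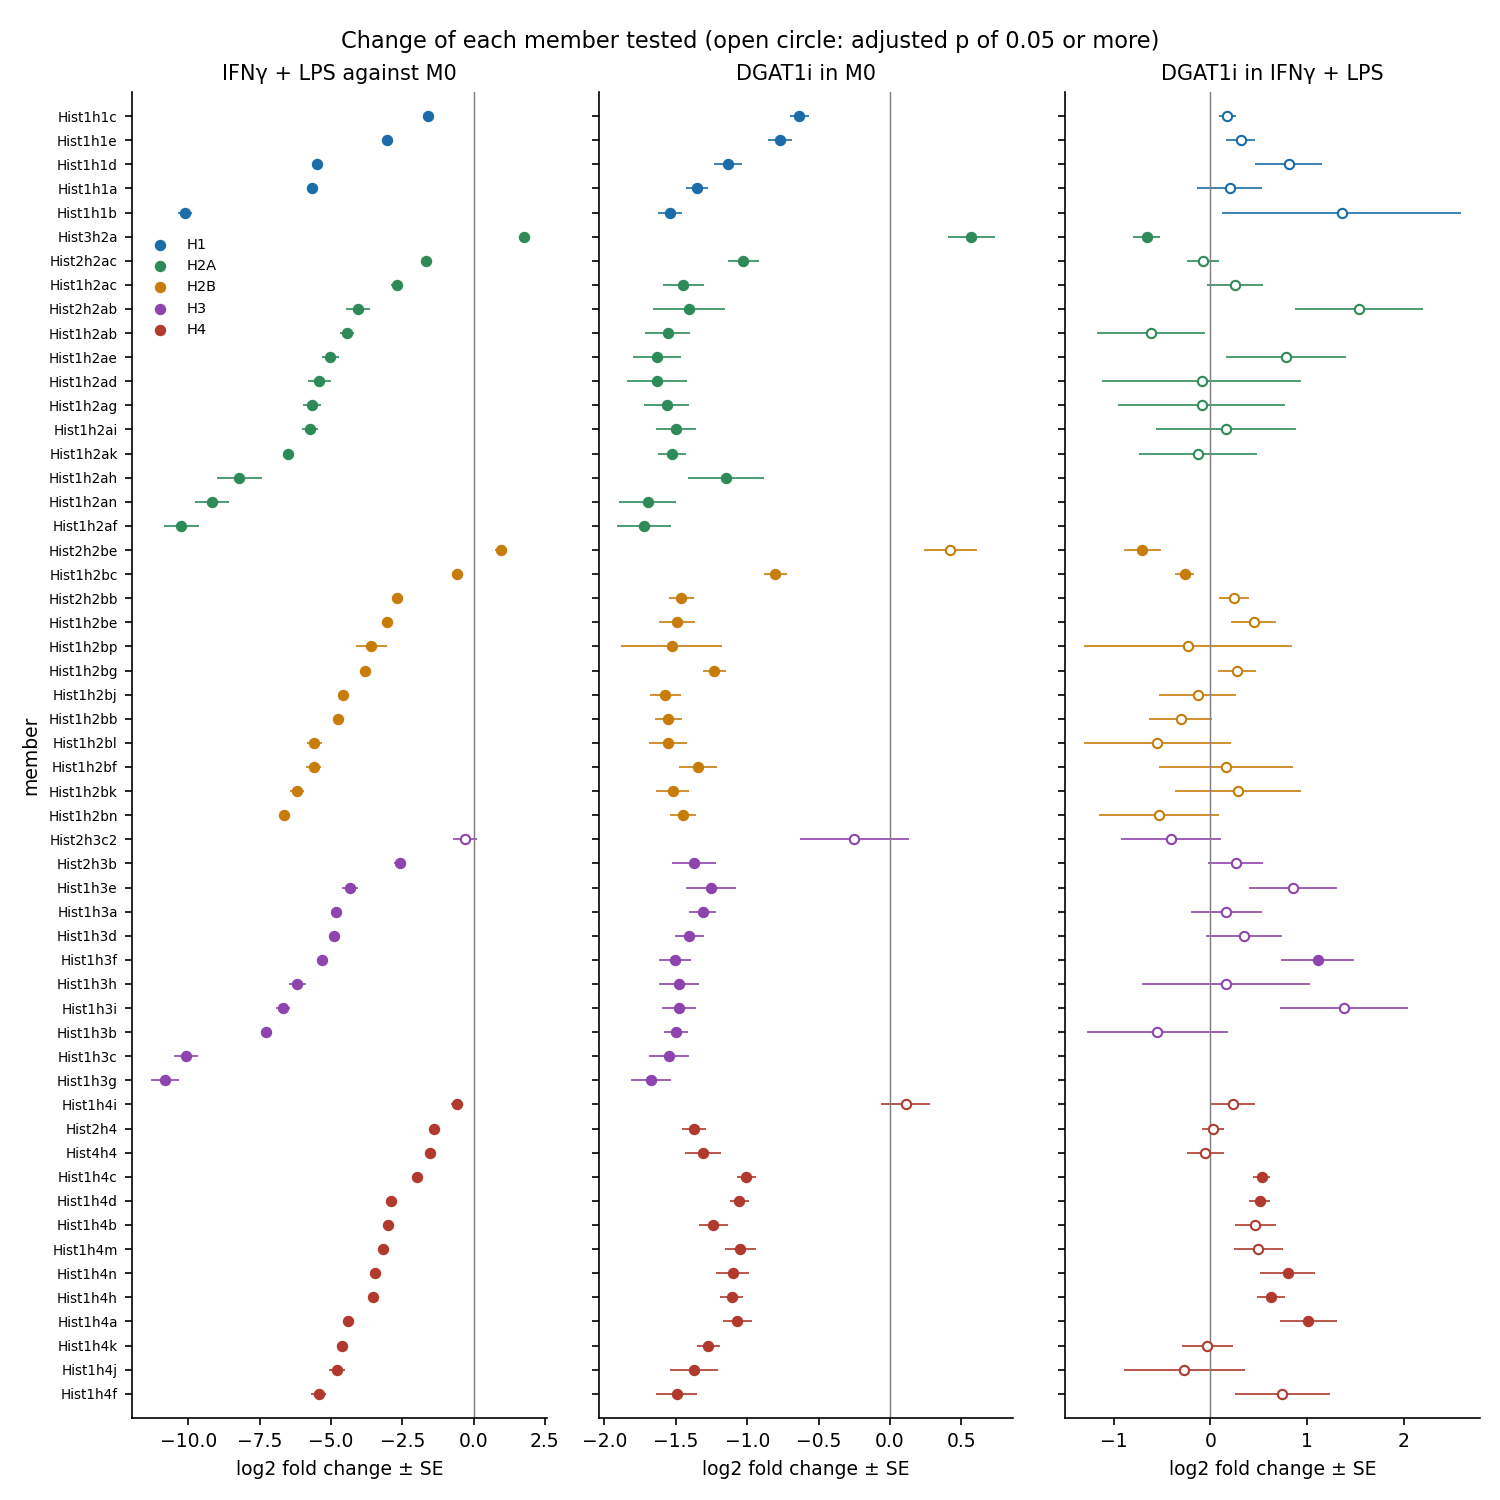
Log2 fold change ± SE of each member tested, by histone type, in 3 comparisons (the horizontal axes differ between panels), with an open circle where the adjusted p is 0.05 or more. Members with 3 or fewer reads in both groups of a comparison are left out of its panel. After IFNγ + LPS all circles lie left of 0 but those of Hist3h2a and Hist2h2be, whereas with DGAT1i in activated cells most are open and near 0.

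Per length of transcript, the highest M0 levels belonged to short H4 genes. Hist1h4h stood at 475 CPM per kilobase of annotated exons, Hist1h4f at 419.7 and Hist1h4k at 390.4, followed by Hist1h2bn at 307 and Hist1h2ak at 239. After activation the order was led by Hist1h1c at 50.0, Hist1h4c at 49.5 and Hist1h2bc at 47.4, neighbours that did not differ beyond the spread between libraries, followed by Hist2h2ac at 43.5 and Hist1h4h at 41.5. These levels rest on the M21 models, which may differ from those the authors counted on. Very long models, as for Hist1h1d with 23.8 CPM per kilobase in M0, lower the value.

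**Figure D3:**
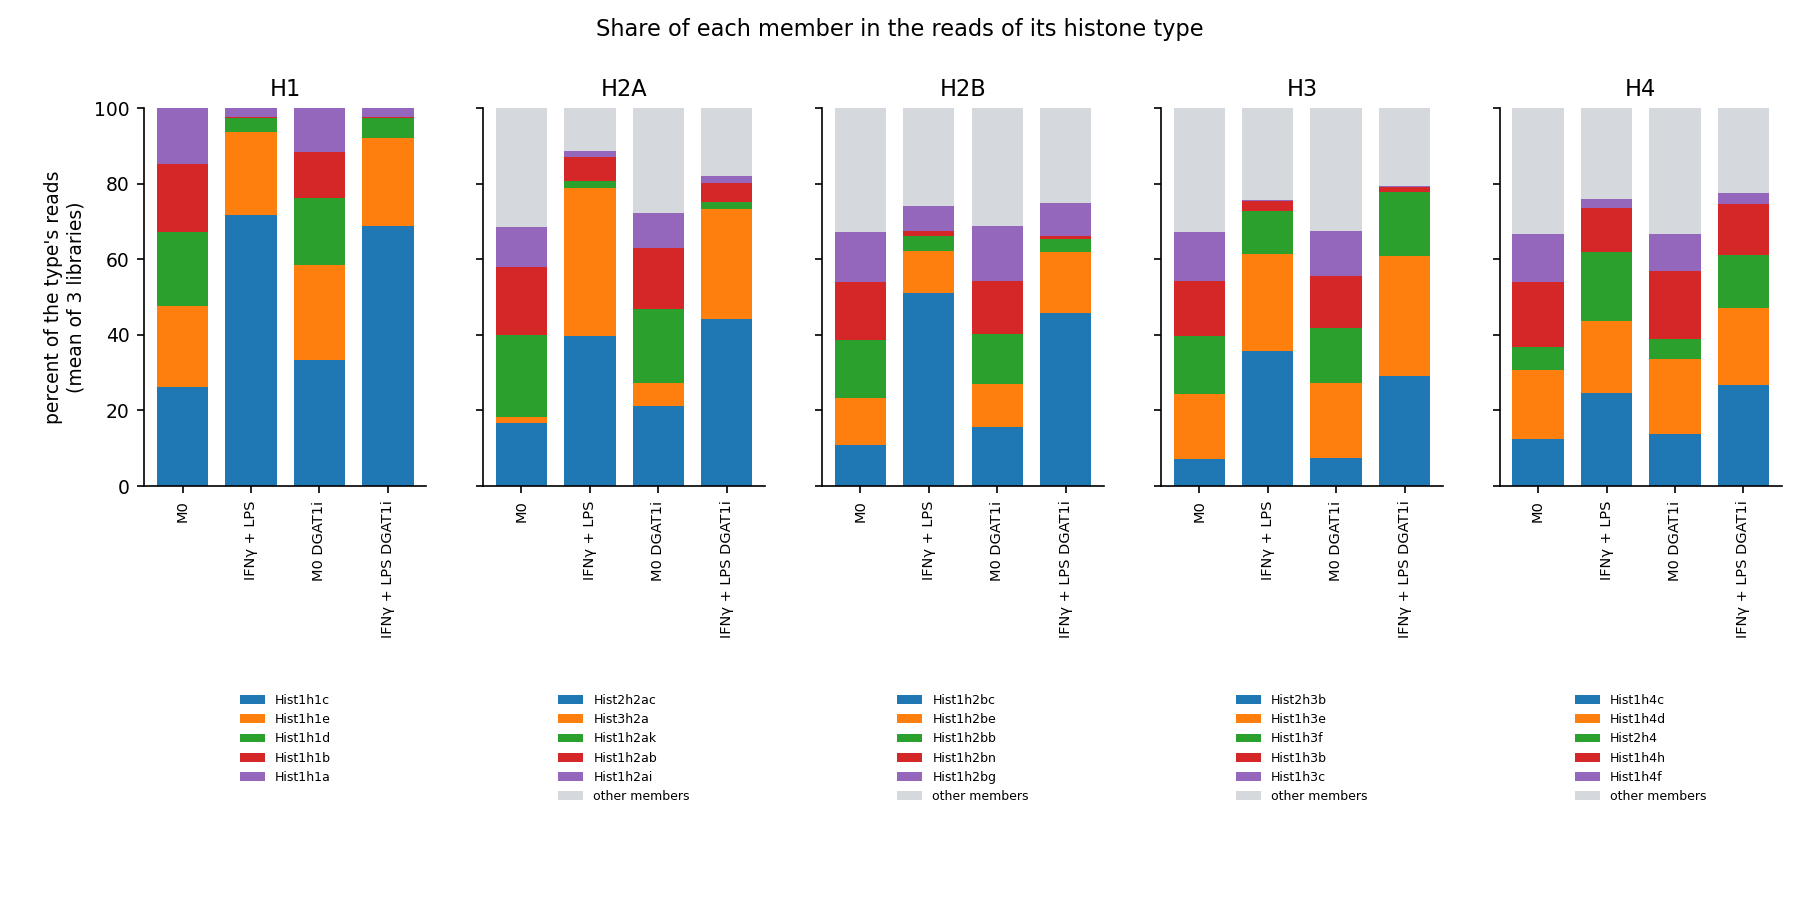
Percent of the reads of each histone type that came from its leading members (mean of 3 libraries per group), with all other members in grey. After IFNγ + LPS Hist1h1c held 71.7% of H1, Hist1h2bc 50.9% of H2B and Hist2h3b 35.7% of H3, against 26.1%, 10.7% and 7.19% in M0.

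The responses were also set beside the annotated ends of the transcripts. Among the 13 members with over 500 annotated bases after the stop codon, the median log2 fold change after IFNγ + LPS was -1.97, and both members that rose (Hist3h2a with 1700 bases and Hist2h2be with 2192) were in this group. The median was -4.67 for members with 30 to 500 bases (28 tested) and -6.49 for the 13 with fewer than 30. In all these medians, members with no read after activation enter at fitted values and not at their bounds. Hist1h2af, Hist1h2an and Hist1h2ah of the last group are among them. By the poly(A) signal, which directs ordinary tail addition, the 15 tested members with a signal annotated after the stop codon had a median of -2.69 and the 26 with 30 or more bases but no signal a median of -4.67. The ranges overlapped: Hist1h1d, with 4931 bases, fell by 5.47, and Hist2h2ac, with 94 bases and no signal, fell by only 1.67. The annotated ends move together with other properties. Members with at least 80% of windows in no copy had a median of -2.69 and those with over 50% in a copy a median of -5.64, and the 9 tested members outside chromosome 13 had a median of -1.53 against -4.90 for the 45 on it. These medians are descriptions, and the part that tail addition, copy number, position or annotation has in them was not tested.

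**Figure D4:**
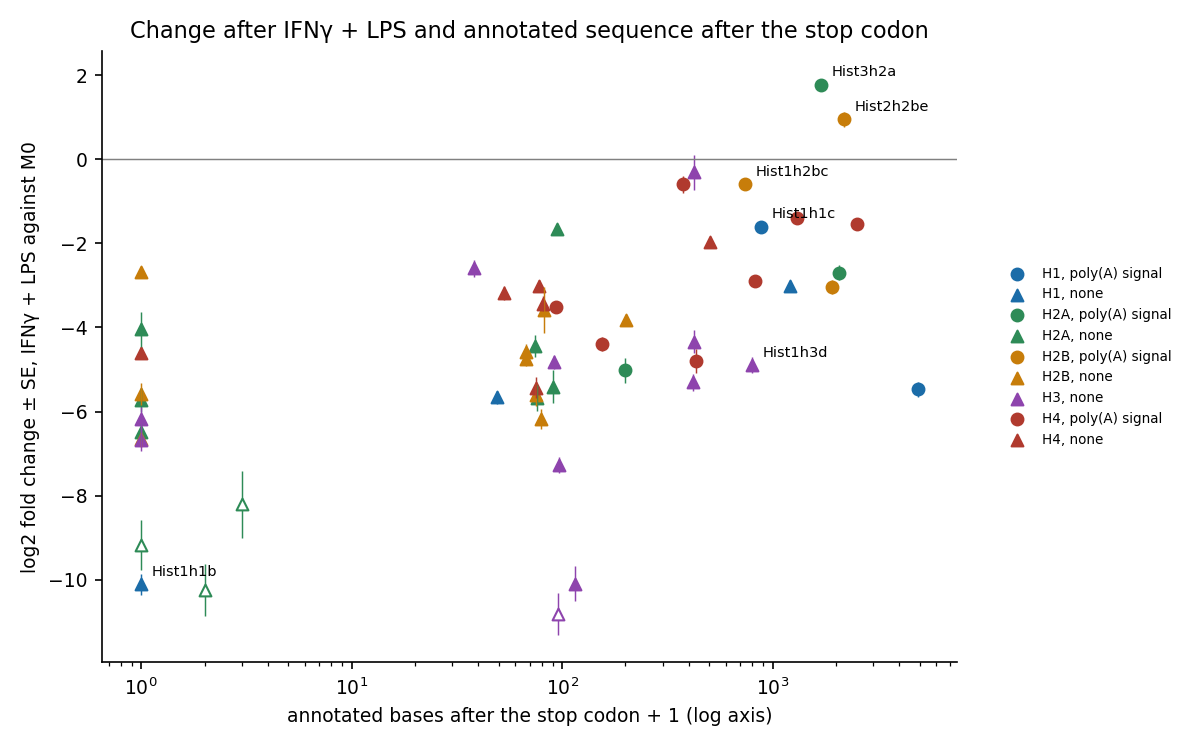
Log2 fold change ± SE after IFNγ + LPS against the annotated bases after the stop codon plus 1 (log axis) for the 54 members tested. Circles mark members with an annotated poly(A) signal after the stop codon, triangles those without, and open symbols the 4 members with no read after activation. Hist3h2a and Hist2h2be, above 0, lie among the members with the longest ends.

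Promoter sequences were read for the 51 members with a RefSeq promoter (GRCm38.p6), to see what members that fell together share. Each covers 250 bases before the start and also bases after it. Motifs were counted over the whole sequence, so some hits lie after the start, as for TATAAA in Hist1h2ad. Counting both strands, the letters CCAAT occurred in all 5 H1, 14 H2A, 11 H2B and 9 H3 windows but in 3 of 12 H4 windows, against 37.4% of all 32851 promoters. The octamer ATTTGCAT, the site known for H2B genes, occurred in 6 of 14 H2A and 4 of 11 H2B windows, in none of the other types, and in 1.7% of all promoters. AAACACA, known from H1 genes, occurred in 4 of 5 H1 windows and 7.2% of all promoters. TATAAA occurred in 32 of the 51 and in 13.6% of all promoters. TATAAA ends in the letters with which AAACACA begins, so these motifs can share bases. For 4 members, 120 bases before the start are printed with these motifs in capitals on either strand: the H1 gene that fell furthest, the H1 gene that kept the most, the H2A gene that rose, and the H4 gene with the highest level per length.
Hist1h1b, chr13:21780626-21780745, minus strand: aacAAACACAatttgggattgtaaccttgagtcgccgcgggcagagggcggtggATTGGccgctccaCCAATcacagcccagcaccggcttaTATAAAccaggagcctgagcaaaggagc
Hist1h1c, chr13:23738687-23738806, plus strand: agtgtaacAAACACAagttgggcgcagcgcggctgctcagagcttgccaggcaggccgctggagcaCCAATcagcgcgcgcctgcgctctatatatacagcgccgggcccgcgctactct
Hist3h2a, chr11:58954565-58954684, plus strand: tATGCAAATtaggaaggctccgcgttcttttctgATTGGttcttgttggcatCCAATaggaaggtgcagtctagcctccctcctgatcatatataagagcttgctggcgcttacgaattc
Hist1h4h, chr13:23530924-23531043, plus strand: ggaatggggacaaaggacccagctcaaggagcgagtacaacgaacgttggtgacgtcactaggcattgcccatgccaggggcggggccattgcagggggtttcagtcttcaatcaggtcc
Hist1h1b and Hist1h1c carry the same H1 letters and CCAAT although they lay at opposite ends of the H1 response. Hist3h2a holds the octamer on the minus strand together with CCAAT on both, and no motif searched occurs in the 120 bases printed for Hist1h4h. H2A and H2B members with the octamer had a median log2 fold change of -4.13 after IFNγ + LPS (10 tested) and those without it -5.60 (13 tested). Members with and without TATAAA had medians of -4.90 and -3.28. Hist1h2bc, Hist2h2be, Hist2h4, Hist1h3a and Hist1h3f had no matching promoter entry.

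DGAT1 inhibition in resting cells was compared with M0 to ask what the inhibitor does without activation. Histone cluster reads fell to 42.9% ± 2.10 of the M0 sum (SD, n = 3), with H1 at 50.4% ± 0.867, H4 at 44.5% ± 1.75, H2B at 39.4% ± 2.42, H2A at 38.4% ± 4.24 and H3 at 37.0% ± 4.37. Over the 2 H2A members with mostly unshared sequence the H2A sum stood at 58.8%. In this comparison 50 of 54 members were lower and 1 was higher, against 13.4% and 11.0% of all genes tested. The M0 libraries serve as the controls here and for activation, so the counts of both comparisons are not independent. The median log2 fold change of the members was -1.39, against 0.0037 over all genes, and 47 members fell by more than 2-fold, a size not counted over all genes. Other-cell markers moved here too: the neutrophil sum went from 31.6 to 38.7 CPM down to 22.9 to 29.03 CPM, with none of the 4 genes tested past the threshold, and the B cell sum from 2.03 to 2.66 CPM down to 0.531 to 1.85 CPM, with Cd79b lower (-1.11, adjusted p = 0.0296). Their part in the histone values was not tested.

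The falls with DGAT1i in resting cells were alike across most genes, with quartiles of -1.53 and -1.12. The furthest falls were in H2A and H3 genes: Hist1h2af went from 26.0, 29.4 and 18.7 CPM to 8.90, 5.25 and 8.18 CPM (-1.72 ± 0.188, adjusted p = 6.13e-07), and Hist1h3g from 40.5, 41.1 and 28.5 CPM to 12.8, 8.94 and 12.7 CPM (-1.67 ± 0.143, adjusted p = 1.43e-10). Hist1h2an (-1.70) and Hist1h2ad (-1.63) lay beside them, both with no overlap between the groups. Among the genes with the most reads of each type, Hist1h4d stood at 113, 121 and 108 CPM, Hist2h2ac at 33.3, 32.1 and 40.5 CPM and Hist1h3e at 53.9, 45.9 and 55.0 CPM with the inhibitor, all below their M0 libraries. Hist1h1c fell the least of the 50, from 242, 267 and 200 CPM to 147, 157 and 153 CPM (-0.63 ± 0.0687, adjusted p = 1.4e-08), and Hist1h2bc fell the least among H2B genes, to 47.8, 49.7 and 44.9 CPM (-0.80 ± 0.0811, adjusted p = 4.29e-11).

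Hist3h2a again moved the other way, with 9.96, 10.9 and 8.31 CPM under DGAT1i against 6.39 to 6.68 CPM in M0 (log2 fold change 0.57 ± 0.163, adjusted p = 0.00622). Without M0 DGAT1i replicate 2 the adjusted p became 0.0542. Hist2h2be (0.42 ± 0.184, adjusted p = 0.089), Hist1h4i (0.11 ± 0.173, adjusted p = 0.708) and Hist2h3c2 (-0.25 ± 0.380, adjusted p = 0.698) did not pass the test. Within H1, Hist1h1b held 12.3% ± 0.995 of reads with DGAT1i against 18.01% ± 0.196 in M0, and Hist1h1c 33.5% ± 0.941 against 26.1% ± 0.158.

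DGAT1 inhibition in cells given IFNγ + LPS was compared with IFNγ + LPS alone, in cells whose histone reads were already low. In this comparison 6 of 54 members were higher and 3 were lower, against 13.5% and 16.3% of all genes tested, in the fit of all 12 libraries. The number of members higher depended on the fit: it was 3 without IFNγ + LPS DGAT1i replicate 1, beside 1446 of all 11968 genes tested, 11 without M0 replicate 3, beside 1598 of 11928, and 12 in a fit of the 6 libraries compared, beside 1653 of 10610. The median log2 fold change was 0.19 over the 54, or 0.20 without the 5 members that had 3 or fewer reads in each group, and -0.0115 over all genes. Summed histone reads stood at 12.9% ± 0.524 of M0 with the inhibitor and at 11.2% ± 0.481 without it.

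Of the 6 that rose in the fit of all 12 libraries, 5 were H4 genes. Hist1h4d measured 36.9, 30.2 and 28.3 CPM without and 47.5, 45.7 and 41.3 CPM with DGAT1i (log2 fold change 0.51 ± 0.104, adjusted p = 0.000155). Hist1h4c (0.53 ± 0.0895, adjusted p = 3.93e-06) and Hist1h4h (0.62 ± 0.147, adjusted p = 0.00208) had changes of like size. Hist1h4a rose from 4.21, 2.34 and 3.37 CPM to 7.41, 6.47 and 5.84 CPM (1.01 ± 0.291, adjusted p = 0.00766) and Hist1h4n from 4.001, 2.16 and 2.997 CPM to 5.35, 5.84 and 4.44 CPM (0.80 ± 0.280, adjusted p = 0.0251). The H3 gene Hist1h3f rose from 1.68, 3.42 and 2.997 CPM to 7.21, 5.21 and 5.37 CPM (1.11 ± 0.377, adjusted p = 0.0329). The groups did not overlap for any of the 6. Over all 56 members, 13 lay above and 5 below without overlap, and the share over all genes was not counted. The sum of the H4 genes was 179, 164 and 156 CPM without and 231, 225 and 205 CPM with the inhibitor. Over the 4 H4 members with mostly unshared sequence it was 103.6 to 116.6 CPM without and 136.1 to 145.9 CPM with it, with no overlap. The other types did not all go this way. H1 sums went from 104 to 113 CPM up to 126 to 131 CPM and H3 sums from 23.04 to 25.2 CPM up to 32.5 to 36.9 CPM, whereas H2A sums went from 56.4 to 57.9 CPM down to 45.3 to 51.5 CPM, all with no overlap. In the mean the H2A sum went from 57.1 to 48.5 CPM, and Hist3h2a alone from 22.4 to 14.1 CPM. H2B sums overlapped, with 100.6 to 115.6 CPM without and 97.8 to 101.4 CPM with the inhibitor. Hist1h3f missed the threshold without any 1 of the IFNγ + LPS or IFNγ + LPS DGAT1i libraries (adjusted p of 0.0518 to 0.155), as did Hist1h4n without IFNγ + LPS replicate 2 or 3 or IFNγ + LPS DGAT1i replicate 1 or 2 (0.0598 to 0.162) and Hist1h4a without IFNγ + LPS replicate 2 (0.0622) or IFNγ + LPS DGAT1i replicate 1 (0.0518).

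The 3 that fell were Hist3h2a and Hist2h2be, the members that activation had raised, and Hist1h2bc. Hist3h2a went from 24.6, 21.6 and 20.98 CPM to 15.03, 14.4 and 12.8 CPM (-0.66 ± 0.139, adjusted p = 0.000164). Hist2h2be went from 9.69, 11.3 and 12.2 CPM to 7.00, 6.88 and 6.54 CPM (-0.70 ± 0.195, adjusted p = 0.00403). Hist1h2bc went from 51.6, 63.2 and 49.6 CPM to 42.4, 47.6 and 47.4 CPM (-0.26 ± 0.0969, adjusted p = 0.0334), a call lost without IFNγ + LPS replicate 2 (adjusted p = 0.314), without IFNγ + LPS DGAT1i replicate 1 (0.143) and in DESeq2 (0.0922). The groups did not overlap for these 3 either, among 5 members that lay below without overlap. Hist1h1c (0.17 ± 0.0874, adjusted p = 0.137), Hist2h2ac (-0.08 ± 0.163, adjusted p = 0.78) and Hist1h3e (0.85 ± 0.457, adjusted p = 0.212) did not pass. Hist1h3e passed in DESeq2 (adjusted p = 0.0162), in a fit of the 6 libraries compared (0.00128) and without M0 replicate 3 (0.000452), and Hist1h1c passed in the fit of 6 libraries (0.043). Markers of neutrophils moved with this comparison: the 8 summed to 15.2 to 25.5 CPM after IFNγ + LPS and to 63.0 to 81.0 CPM with DGAT1i, and the 4 that could be tested, S100a8, S100a9, Ngp and Ltf, were all higher, while Ly6g was at 0 in all groups and Elane in both activated groups. Dendritic cell markers went the other way, from 8.06 to 11.2 CPM in sum down to 3.499 to 6.77 CPM, with Xcr1 lower (-2.65, adjusted p = 4.93e-07). The part of these markers in the histone values was not tested.

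The response to DGAT1i in activated cells minus that in resting cells was tested as an interaction. It was past the threshold for 33 of 54 members, 31 higher and 2 lower, against 8.66% and 9.80% of all genes. All 4 neutrophil markers tested were also higher in this contrast (2.20 to 3.10 on the log2 scale), and their part in it was not tested. Side by side, Hist1h4d changed by 0.51 in activated and by -1.06 in resting cells, a difference of 1.56 ± 0.122 (adjusted p = 3.12e-13). For Hist1h1c the values were 0.17 and -0.63, with a difference of 0.81 ± 0.111 (adjusted p = 2.8e-06), and for Hist1h2bc they were -0.26 and -0.80, with a difference of 0.54 ± 0.127 (adjusted p = 0.00146). Among members past the threshold, the largest positive differences, in Hist2h2ab (2.94), Hist1h3i (2.86), Hist1h3f (2.61) and Hist1h2ae (2.41), came from genes with 6, 8, 43 and 11 reads in the 3 libraries of IFNγ + LPS. Hist3h2a and Hist2h2be differed the other way, by -1.23 ± 0.214 (adjusted p = 1.62e-05) and -1.13 ± 0.268 (adjusted p = 0.00142). For Hist3h2a the inhibited libraries held 8.31 to 10.9 CPM at rest and 12.8 to 15.03 CPM after activation, closer together than the 6.39 to 6.68 and 20.98 to 24.6 CPM without inhibitor.

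Genes that work with the histone genes, or in the same phase of the cell cycle, were taken from 4 lists. Of 28 S-phase genes (DNA replication enzymes, their regulators and cycling markers), 26 fell after IFNγ + LPS and 1, Ccne1, rose, beside 36.2% and 37.1% of all genes, with a median log2 fold change of -3.55. Mcm6, a subunit of the replicative helicase, fell from 249.5 ± 18.4 to 20.9 ± 2.42 CPM, and Rrm1, a subunit of the enzyme that makes deoxynucleotides, from 191 ± 15.4 to 17.1 ± 2.06 CPM. Mki67, a marker of cycling cells, stood at 457, 508 and 383 CPM in M0 and 9.90, 11.9 and 8.99 CPM after activation. In M0, 27 of the 28 fell with DGAT1i, beside 13.4% of all genes, with a median of -0.85, and Mki67 was at 182, 169 and 186 CPM. In activated cells 8 fell with DGAT1i and none rose, beside 16.3% and 13.5% of all genes, with a median of -0.41. Mcm5, another helicase subunit, fell by 1.71 ± 0.243 on the log2 scale (adjusted p = 4.78e-06).

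Of 9 replacement histone genes tested, which are also used outside S phase, 4 rose and 4 fell after IFNγ + LPS, beside 37.1% and 36.2% of all genes. H3f3b, which encodes H3.3, rose from 350.4 ± 13.9 to 891 ± 42.6 CPM (log2 fold change 1.35 ± 0.0517, adjusted p = 7.97e-31), and H3f3a, H2afj and H2afy rose by 0.15, 0.86 and 0.45. Cenpa, the centromere form of H3, fell from 53.8 ± 3.28 to 7.98 ± 1.11 CPM, and H2afx, H2afv and H2afz fell by 2.98, 2.78 and 0.82 on the log2 scale. H3f3b alone had 890.6 CPM after activation, against 23.8 CPM for the 11 cluster H3 genes together. Counts of different genes are not per length, and stem-loop transcripts without a poly(A) tail were captured only in part. These 2 values therefore describe reads and not transcripts. With DGAT1i in M0, 5 of the 9 fell and 2 rose, beside 13.4% and 11.0% of all genes. In activated cells Cenpa rose by 0.67 and H3f3b and H1f0 fell by 0.24 and 0.32.

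Of 14 genes for histone gene transcription and histone mRNA 3′ ends, 7 fell and 4 rose after IFNγ + LPS, beside 36.2% and 37.1% of all genes, with a median of -0.24. Slbp, the protein that binds the stem-loop, fell from 58.0, 55.7 and 50.7 CPM to 31.6, 26.6 and 28.1 CPM (-0.93 ± 0.0922, adjusted p = 2.16e-13) and with DGAT1i in M0 to 39.7, 36.8 and 40.5 CPM (-0.49 ± 0.0824, adjusted p = 4.21e-06). Eri1, an exonuclease that trims histone mRNA ends, fell by 0.77 and Mif4gd, a partner of Slbp in translation, rose by 1.03 after activation. Npat, the S-phase coactivator of histone gene transcription, rose with DGAT1i in activated cells by 0.36 ± 0.121 (adjusted p = 0.0189). With DGAT1i 5 of the 14 fell in M0, beside 13.4% of all genes, and in activated cells 2 rose and 3 fell, beside 13.5% and 16.3% of all genes. Of 18 histone chaperones, which carry histones to and from DNA, 12 fell and 4 rose after activation, beside 36.2% and 37.1% of all genes. Asf1b and Chaf1a, which act in replication, fell by 3.98 and 3.20, and Daxx, which deposits H3.3, rose by 3.06 (adjusted p = 1.14e-43). In M0, 13 of the 18 fell with DGAT1i and 1 rose, beside 13.4% and 11.0% of all genes.

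**Figure D5:**
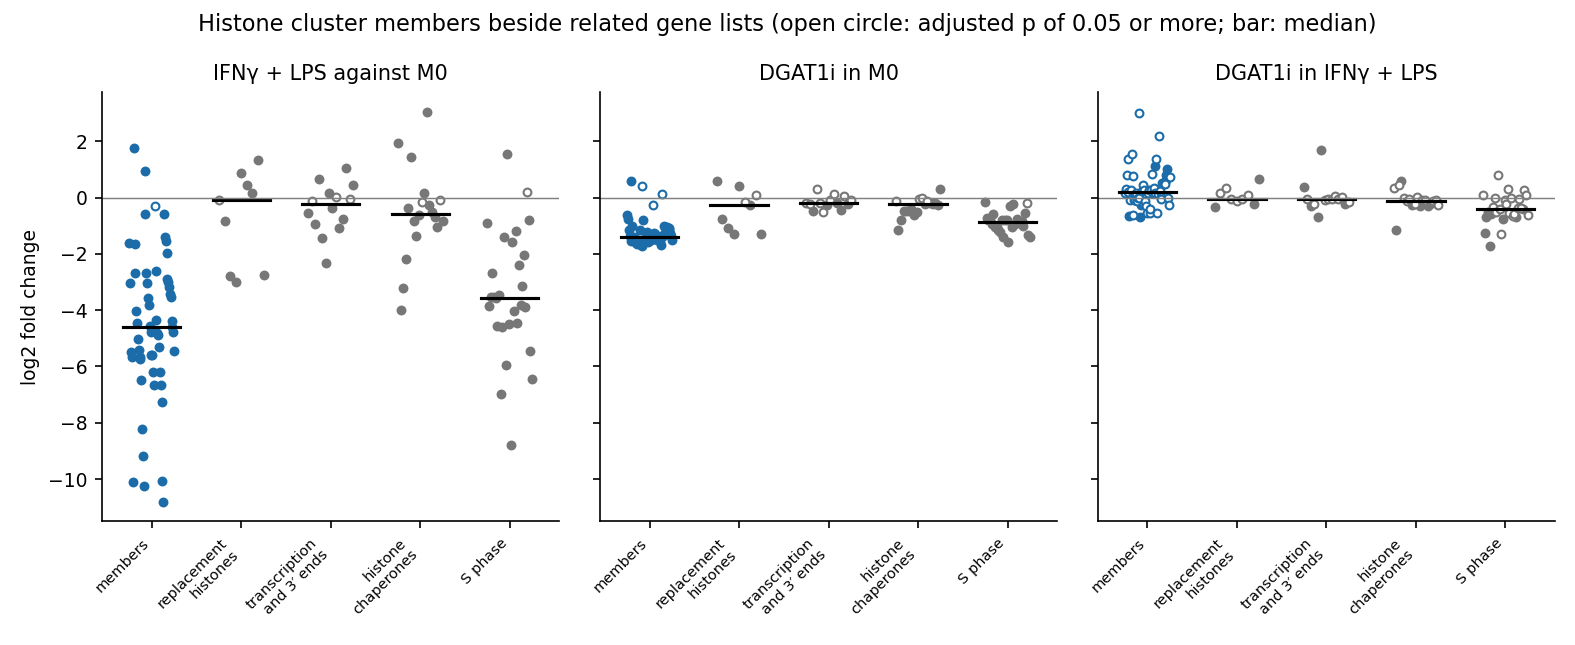
Log2 fold change of the 54 members tested and of the genes of 4 related lists in 3 comparisons, with a bar at each median and open circles where the adjusted p is 0.05 or more. Members and S-phase genes lie lowest after IFNγ + LPS (medians -4.59 and -3.55) and with DGAT1i in M0 (-1.39 and -0.85), and on opposite sides of 0 with DGAT1i in activated cells (0.19 and -0.41).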

How the data were processed

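The deposited table holds whole-number read counts per Ensembl gene and library, not normalized. The submitters' processing notes name GRCm38 and DESeq2. The study's methods cite a pipeline of the institute's bioinformatics core (snakePipes), whose aligner, counter, annotation and strand setting they do not spell out. They name a TruSeq stranded mRNA kit, whereas the labels name a NEBNext Single Cell/Low Input kit. Descriptions of 2 M0 DGAT1i samples give T864 and T865 where the other labels give T863, and were read as T863. Of the identifiers, 47224 matched GENCODE M21 with the version dropped. Main fit: edgeR 4.0.16 in R 4.3.3, TMM, filterByExpr (11760 genes tested), a robust quasi-likelihood test over all 12 libraries with 1 mean per group, Benjamini-Hochberg adjustment, threshold 0.05. SE is the log2 fold change divided by the root of F. DESeq2 1.42.0 was an alternative. The fit was tested on simulated data. The sources used here do not tie the replicates of these libraries to separate animals or cultures, so p-values measure the spread between these samples, which may be technical. No 2 libraries of a group agreed within sampling noise (chi-square per gene 1.93 to 4.06). Exact intervals and floors cover counting error only.

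Members and lists were chosen with earlier results of these data known. Named were the member with the most reads of each type and, per comparison, up to 4 members with the largest increase and decrease past the threshold, and from each list up to 4 genes with the smallest p. Hist1h1a, Hist1h1d, Hist1h1e, Hist1h2ah, Hist1h4c, Hist1h4i, Hist2h3b, Hist2h4, Hist2h3c2 and further list genes were added after their values were seen. Shared sequence was counted in windows of 50 bases over M21 transcripts, and promoters came from RefSeq (GRCm38.p6). Alternatives were other scalings, filters, DESeq2, a replicate block, only the 6 libraries compared, and each library left out.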

Additional observations from a re-analysis of the deposited data

Results flagged for a closer look

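The response to DGAT1i differed between activated and resting cells, by the interaction term of the edgeR fit, for 33 of 54 members, 31 higher and 2 lower, beside 8.66% and 9.80% of all genes. The 4 neutrophil markers tested were also higher, and their part was not tested. In log2 units, activated minus resting, the differences were 2.94 for Hist2h2ab, 2.86 for Hist1h3i, 2.61 for Hist1h3f, 2.41 for Hist1h2ae, 2.11 for Hist1h3e, 1.56 for Hist1h4d, 0.95 for Hist2h2ac, 0.81 for Hist1h1c and 0.54 for Hist1h2bc. They were -1.23 for Hist3h2a and -1.13 for Hist2h2be. Hist1h3e (adjusted p = 0.0173, edgeR) missed the threshold without IFNγ + LPS DGAT1i replicate 1 (0.0517) or 2 (0.0684), and Hist1h2ae (0.00661) without replicate 2 of that group (0.156). On a linear scale the falls in M0 started from levels far above those of the activated cells, and what share of the difference comes from that starting level was not tested.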

How the results depend on the processing

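Of the 53 members called after IFNγ + LPS, 52 to 53 were called in the same direction in each scaling, filter, tool and left-out library run (52 without M0 replicate 2 or IFNγ + LPS replicate 1), as were 50 to 51 of the 51 called with DGAT1i in M0. No named member changed direction in a comparison where it was called. Scaling by library size alone shifted the median of all genes after IFNγ + LPS to -0.46 and that of the members to -5.06, and the sums to 8.68% of M0 for H1, 9.50% for H2A, 10.0% for H2B, 2.42% for H3 and 9.25% for H4, with H1 at 48.4% for DGAT1i in M0. Over members with at least 80% of windows in no copy, the sums after IFNγ + LPS were 80.2% for H2A, 19.4% for H2B and 22.2% for H4. With DGAT1i in M0 they were 58.8% for H2A and 46.7% for H4. These sums hold 2 H2A genes, Hist3h2a among them, 3 H2B genes and 4 H4 genes, and the reason for the shift was not tested. Leaving out 1 library moved the sums after IFNγ + LPS to 11.2% to 12.9% for H1, 11.97% to 14.1% for H2A, 3.07% to 3.56% for H3 and 11.9% to 13.4% for H4, and those with DGAT1i in M0 to 46.8% to 54.0% for H1, 36.8% to 41.2% for H2B and 41.4% to 46.7% for H4.

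DGAT1i in IFNγ + LPS depended most on the fit: 9 members were called (6 higher), 15 (12 higher) in a fit of the 6 libraries compared, 11 (9 higher) in DESeq2 and 12 (9 higher) with no filter. Over all genes, 1589 of 11760 were higher in the reported fit, 1653 of 10610 in that of 6 libraries, 1124 of 11865 in DESeq2 and 1235 of 22191 with no filter. Leaving out 1 library gave 5 to 14 calls with 3 to 11 higher, the fewest without IFNγ + LPS DGAT1i replicate 1 and the most without M0 replicate 3. With DGAT1i in M0, 0 to 1 members were higher, 0 without M0 DGAT1i replicate 2. The cause was not tested. With a replicate block, 10 members were higher with DGAT1i in IFNγ + LPS, beside 1624 of all 11760 genes. Same-numbered libraries did not deviate together (18 pairs, r of -0.022 to 0.069), so the numbers were not taken to pair the samples. After IFNγ + LPS 20 members had a mean under 1 CPM, and the effect of depth on their calls was not tested.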
